A study of Rattus norvegicus with 20 samples.

Results

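Mammary adenocarcinomas of obesity-prone (OP) rats were compared with normal mammary tissue of OP rats, and the change was then set against the change between cancer and normal tissue in obesity-resistant (OR) rats and lean controls (LC). The members were the samples whose titles name cancer (6) or normal tissue (3) of obesity-prone animals, 9 of the 20 samples in the series. All animals were female Sprague-Dawley rats of the Jcl:SD stock. OP cancers and OP normal tissues came from rats on food with 45 kcal% fat that were classed as prone by body weight at 7 weeks of age. OR cancers (3) and OR normal tissues (2) came from rats on the same food that were classed as resistant, and LC cancers (3) and LC normal tissues (3) from rats on food with 10 kcal% fat. The treatment protocol, given alike for cancer and normal samples, states whole-body exposure at 7 weeks of age to Cs-137 gamma rays, at a dose of 4 Gy and a rate of 0.5 Gy per min, and 30 weeks of observation on the same food. The normal tissue came from age-matched rats, and the labels describe no unirradiated group. The series design states that adenocarcinomas were picked for like histology and for lack of necrosis and of heavy infiltration by other cells, so other tumours are not represented.

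The rat mammary gland is a tree of epithelial ducts, with an inner luminal layer that can make milk and an outer contractile myoepithelial layer, set in a pad of fat cells with fibroblasts, vessels and immune cells. Fat cells store triglyceride, secrete hormones such as adiponectin, resistin and leptin, and carry dedicated lipid enzymes. An adenocarcinoma is a mass of dividing gland-like epithelium, and a piece of it therefore holds a mixture of cells that differs from that of a piece of normal gland. In RNA from whole tissue, fewer cells of a type and less RNA per cell cannot be told apart.

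Levels below are log2 intensities on 1-colour Agilent arrays, 1 sample per array, after background correction and quantile normalization, and a log2 difference is the OP cancer mean minus the OP normal mean unless another pair is named. The share of probes well above background was 61.3% to 79.3% on OP cancer arrays (65.6% ± 7.10, SD, n = 6) and 91.3% to 97.6% on OP normal arrays (94.4% ± 3.17, n = 3), without overlap (two-sided exact permutation p = 0.0238, the smallest that 6 against 3 can give). The number of arrays, not a read depth, limits the precision here. OP cancers 3 to 6 were alone on 1 of the 5 slides, OP cancer 1 shared a slide with OP normal 1, and OP cancer 2 shared another with OP normal 2. All 3 OP normal arrays were scanned on the second of the 2 scan days, as were OP cancers 1 and 2, while the other 4 OP cancers were scanned on the first. OP cancer 6 stood apart from the other OP cancers: on the second principal component (9.49% of the variance over all 20 arrays) it lay at -49.8, against 5.40 to 23.1 for the others. The labels do not state that each sample had its own animal, and p-values cover only the spread among these arrays.

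The labels held for the cell content they imply. The mean level of 24 fat cell markers was 7.71 to 8.19 in the 6 OP cancers and 11.30 to 11.77 in the 3 OP normal tissues, and that of 15 luminal epithelial markers was 11.60 to 12.41 in OP cancers and 11.10 to 11.36 in OP normal tissues. Neither pair of groups overlapped. Both kinds of tissue thus carried epithelial RNA, and the normal samples also carried that of fat.

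The difference between OP cancer and OP normal tissue was wide. By limma's moderated test with Benjamini-Hochberg adjustment, 16062 of 36043 genes (44.6%) were called at an adjusted p of 0.05. Of all genes, 7633 (21.2%) were higher and 8429 (23.4%) lower in OP cancers. The shares of 21.2% and 23.4% are the background for the list counts below that name neither a slide block nor a left-out sample. A count near its background is no result about its list. Of the called genes, 1613 were at least 2-fold higher and 1914 at least 2-fold lower. In 15176 genes (42.1%) no OP cancer overlapped with an OP normal tissue. Of the called genes 47.5% were higher in OP cancers. Scaling each array to its 75th percentile put that share at 13.2% (scanner-processed signal) or 13.9% (background-corrected signal), the authors' deposited value table put it at 34.2%, and the median of all genes moved by -1.43 under the first of these scalings and by -0.84 under the second (log2), so a direction below is relative to the bulk of the probes. Of the genes named below as risen, Aldh1a3, Aldh6a1, Eif2ak3, Erbb3, Esr1, Fancd2, Gclc, Gzmb, Hibch, Il10, Mlxipl, Mre11, Mtor, Nr4a2, Slc6a9 and Zfp36 lay below 0 under at least 1 of the 75th percentile scalings. List members counted without a name are not covered here. Several list medians above 0 also turned below 0 under the first and second scaling. Among them were hormone response (-0.94 and -0.70), the insulin and IGF chain (-0.50 and -0.41), immediate early genes (-0.50 and -0.39) and obesity-linked inflammation (-0.46 and -0.43). The mitosis median stayed at 2.04 and 1.57. With slide as a block 12404 of 36043 genes were called, 6126 higher and 6278 lower in OP cancers, the background for list counts with that block. Since OP cancers 3 to 6 had a slide to themselves, the block takes up their mean. The OP difference with a slide block, here and below, thus rests on OP cancers 1 and 2. A slide effect and the loss of the other OP cancers cannot be told apart in it. Without OP cancer 6, 15944 genes were called (7675 higher and 8269 lower), 15087 of them shared. Leaving out 1 of the 9 OP samples ended the call of 29 of the 184 called genes named here (adjusted p up to 0.232): Areg, Atp5pd, Ccnd1, Cd14, Cdk4, Col1a2, Csn1s2b, Epcam, Esr1, Fstl1, Gzmb, Hmmr, Hp, Ifit3, Kit, Krt5, Lef1, Mlxipl, Ndufa5, Ndufv2, Nr4a2, Pdia4, Pomt2, Ptgs2, S100a4, Stat5b, Uqcrh, Xdh and Zcchc9. Of the called genes named below, the best probe was well above background on 1 of the 6 OP cancer arrays for Calcr, Csn1s2b, Krt4, Or4f61d, Phex and Slc36a2, on 2 for Ces1d, Masp1, Pparg and Rxrg, on 3 for Cidec, Esr1, Ifit3 and Oxtr, on 4 for Grifin and on 5 for Adipoq, Car3, Gclc, Gzmb, Pecam1, Pfkfb3 and Reg3b.

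Most of this change was common to the other rats. Averaged over OR and LC rats, 18887 genes (52.4%) differed between cancer and normal tissue, and 13920 of them were also called in OP rats. All but 7 of the 13920 had the same sign. The 13913 of the same sign were 86.6% of the OP calls and 73.7% of the calls in the other rats. Across the 36043 genes, which are not independent replicates, the OP differences and the mean of the OR and LC differences had Pearson r = 0.929 and Spearman rho = 0.909. For the 2142 genes called in OP rats alone, the other rats had the same sign in 2040. The 7 genes of opposite sign included Dcxr, which makes xylulose reductase (0.38 in OP rats against -0.37 in the others), and Pomt2, a mannosyltransferase (-0.29 against 0.21). In limma both had an adjusted interaction p of 0.953 (unadjusted p = 0.00118 for Dcxr and 0.00115 for Pomt2), so the opposition was not established.

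**Figure D1:**
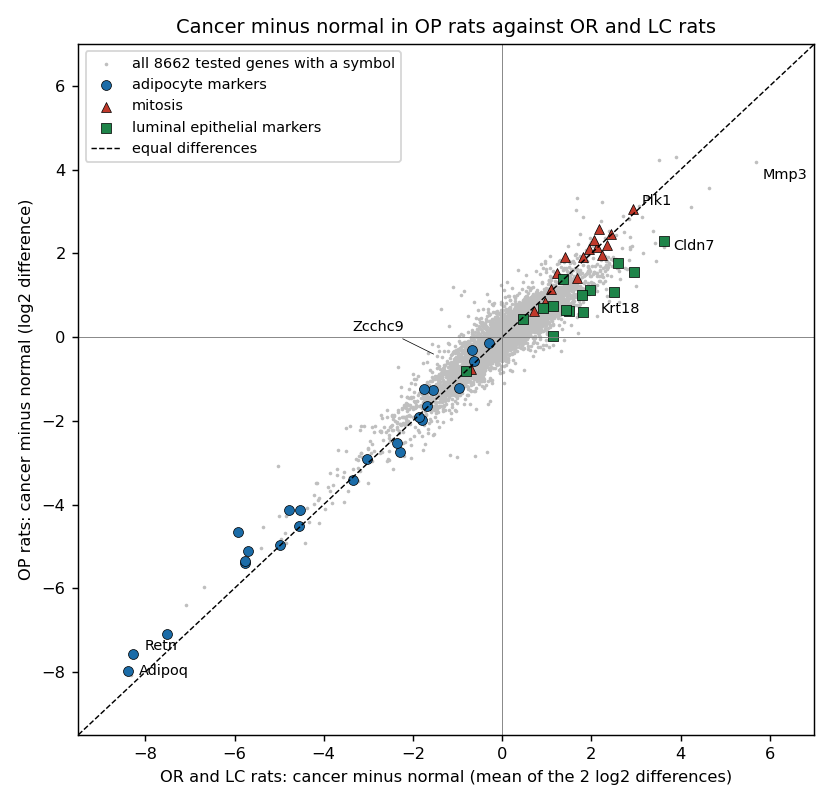
Each point is 1 of 8662 named genes, with the log2 difference between cancer and normal tissue in OP rats on the y axis and the mean of the OR and LC differences on the x axis; the dashed line marks equal differences. Fat cell markers (circles) lie near the line down to Adipoq at -7.98, mitosis genes (triangles) lie near it up to Plk1 at 3.05, and most luminal markers (squares) lie below it.

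What OP rats showed beyond the shared change was tested gene by gene by taking the average of the OR and LC differences from the OP difference. No gene passed in limma (0 of 36043, 0%, lowest adjusted p 0.392), while 1547 genes (4.29%) had an unadjusted p under 0.05, 878 (2.44%) with a more positive and 669 (1.86%) with a more negative difference in OP rats. Against OR rats alone 0 passed, with 957 at an unadjusted p under 0.05 (2.66%), and against LC rats alone 0 passed, with 3032 (8.41%) and a lowest adjusted p of 0.0716. The count of 0 against LC rats was 758 without LC normal 1, 60 without LC normal 2, 6 without OP normal 1, 1 without OP cancer 6 and 0 without any one of the others, and it was 59 with a slide block. At the median standard error the 95% interval of the interaction reached 0.41 to either side, and for 29982 genes (83.2%) the whole interval lay within 1 log2 unit of 0. A gap of 2-fold or more was thus outside the interval for most genes. Smaller gaps could still exclude 0 before adjustment, but no gap of any size passed after adjustment over all genes. The count of 0 therefore does not exclude gaps that lie within the intervals.

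The smallest interaction p belonged to Zcchc9, a CCHC zinc finger gene on chromosome 2. Its levels were 11.31, 11.45, 11.38, 11.47, 11.28 and 10.78 in the 6 OP cancers, numbered in order, and 11.66, 11.89 and 11.62 in the 3 OP normal tissues. They were 10.51, 10.67 and 10.65 in OR cancers against 12.12 and 12.11 in OR normal tissues, and 10.38, 10.36 and 10.31 in LC cancers against 11.75, 11.93 and 11.65 in LC normal tissues. Every OP cancer lay above every OR and LC cancer, and the 2 OR normal tissues lay above every OP and LC normal tissue. Zcchc9 fell by 0.45 in OP rats (adjusted p = 0.00822, and 0.0876 with a slide block), by 1.50 in OR rats and by 1.43 in LC rats. In limma the interaction was 1.02 ± 0.16 (log2, SE, with a 95% interval of 0.67 to 1.36), with an adjusted p of 0.392 (unadjusted p = 1.09e-05). Without OP cancer 6, whose level was the lowest of the OP cancers, the adjusted p was 0.000693. Over 32 settings the interaction stayed between 0.97 and 1.12, and it passed an adjusted p of 0.05 in 2 of them. On the slide that OP cancer 1 and LC cancer 1 shared, OP cancer 1 was higher by 0.93.

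**Figure D2:**
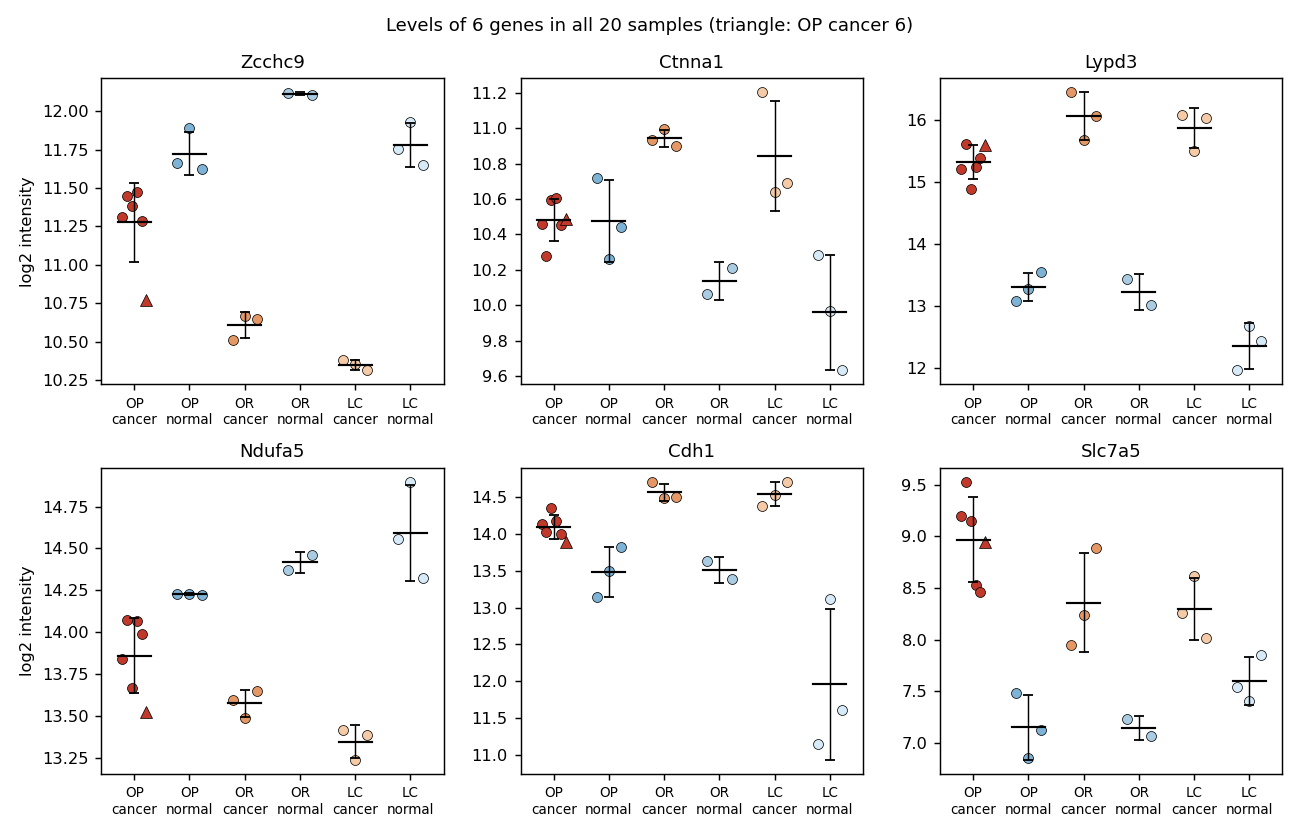
Log2 intensity of 6 genes in all 20 samples by group, with 1 point per sample, group mean (line) and SD (bar); the triangle is OP cancer 6. For Zcchc9 the OP cancers (10.78 to 11.47) lie above the OR cancers (10.51 to 10.67) and LC cancers (10.31 to 10.38). For Cdh1 the LC cancers lie above the OP cancers, and 2 of the 3 LC normal tissues lie below all others.

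The named genes with the next smallest interaction p all had an adjusted p of 0.953. Among those with a more positive difference in OP rats, Psmb3, a proteasome subunit, differed by 0.20 in OP rats, -0.36 in OR rats and -0.75 in LC rats (interaction 0.75). Dad1, a subunit of the enzyme that adds sugar chains to new proteins, differed by 0.24, -0.24 and -0.43 in OP, OR and LC rats. Tmed5, a cargo receptor of the secretory pathway, differed by -0.31, -0.82 and -1.26 in the same order. Ndufa5, a subunit of respiratory complex I, fell by 0.37 in OP rats (adjusted p = 0.0276, and 0.189 with a slide block), by 0.84 in OR rats and by 1.24 in LC rats. Isca1, an iron-sulfur cluster assembly protein of mitochondria, fell by 0.82 in OP rats, 1.21 in OR rats and 1.91 in LC rats. For these 5 genes the OP value was thus nearest to 0 or above it.

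In the other direction, Ctnna1, which encodes the alpha-catenin that ties cadherins to actin, differed by 0.01 in OP rats, 0.81 in OR rats and 0.88 in LC rats (interaction -0.84). Its level was 10.28, 10.47 and 10.61 (lowest, median and highest) in OP cancers and 10.72, 10.26 and 10.44 in OP normal tissues, which overlapped, whereas the OR and LC cancers lay above their own normal tissues. Lypd3, a membrane-anchored protein of epithelia, rose by 2.01 in OP rats (adjusted p = 6.37e-06), 2.83 in OR rats and 3.50 in LC rats (interaction -1.16). Ift56 (interaction -0.39), a part of the cilium transport machinery, the olfactory receptor Or4f61d (-0.72), the peptidase Phex (-0.72) and Pomt2 (-0.49) were all dim, at or below a level of 8.11 in every OP sample.

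Lists of genes were then read by how many members leaned one way. The lists described first had the largest such shares of the 43 at an unadjusted interaction p under 0.05. The members of a list are not independent replicates. Of 29 tested subunits of oxidative phosphorylation, the mitochondrial chain that makes ATP, 10 had a more positive difference in OP rats at an unadjusted interaction p under 0.05 (34.5%, beside 2.44% of all genes) and 0 a more negative one. They were Ndufa5 and Ndufv2 of complex I, Uqcrh of complex III, Cox5b, Cox6c, Cox7a2 and Cox7b of cytochrome oxidase, and Atp5pd, Atp5po and Atp5mc1 of the ATP synthase. Uqcrh differed by 0.46 in OP rats, 0.10 in OR rats and -0.27 in LC rats, and Atp5po by 0.04, -0.39 and -0.73. The skeletal muscle list leaned the same way, with a positive interaction for 13 of 13 genes (median 0.99) and none at an unadjusted p under 0.05. Its mean level was 9.08 in OP cancer 2 and 10.41 in OP cancer 6, against 7.30 to 7.38 in the other OP cancers. It was also 8.97 in OR normal 2, against 7.53 in OR normal 1, and the list's median difference in OR rats was -0.77. OP cancer 2 also had the highest oxidative phosphorylation mean of the OP cancers (13.60, against 13.28 to 13.52 in the others). OP cancer 6, with the highest muscle mean, had 13.35, below OP cancers 4 (13.42) and 5 (13.52). The part of muscle RNA in the count was not tested. The count was 10 and 0 without OP cancer 6 (beside 3.82% and 1.82% of all genes). It was 7 and 0 on the scanner-processed signal (beside 2.91% and 2.04%), and 8 and 4 with a slide block (beside 4.54% and 4.35%). None of these genes passed after adjustment over all genes.

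Luminal epithelial markers leaned the other way: 4 of 15 (26.7%, beside 1.86% of all genes) had a more negative difference in OP rats and 0 a more positive one. They were Krt18, a luminal keratin, Epcam and Cdh1, both epithelial adhesion molecules, and Cldn3, a tight junction protein. Cdh1 differed by 0.61 in OP rats (adjusted p = 0.0947), 1.05 in OR rats and 2.59 in LC rats (interaction -1.21, unadjusted p = 0.00535). Its level was 13.89, 14.08 and 14.35 in OP cancers and 13.14, 13.49 and 13.82 in OP normal tissues, and 14.38, 14.54 and 14.71 in LC cancers and 11.15, 13.11 and 11.61 in LC normal tissues. Every LC cancer thus lay above every OP cancer, and LC normal tissues 1 and 3 were low. The mean of the luminal list was 9.50 and 9.93 in those 2 samples, 11.17 in LC normal 2, and 11.10 to 11.36 in OP normal tissues. Those 2 samples enter every LC difference given here, Lypd3, Erbb2 and Wnt4 among them. The count of 4 became 1 without OP cancer 6 (beside 1.82% of all genes) and 10 without LC normal 2 (beside 2.33%). It became 2 without LC normal 1 (beside 3.14%) or LC normal 3 (beside 2.34%). The part of epithelial content in this lean was not tested.

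Another lean lay in the unfolded protein response, which folds or disposes of proteins in the endoplasmic reticulum. Of 20 members 4 rose less in OP rats at an unadjusted interaction p under 0.05 (20%, beside 1.86% of all genes more negative). They were Pdia3, Pdia4 and Pdia6, which form disulfide bonds (Pdia4 with an adjusted p of 0.173 for its rise with a slide block), and Eif2ak3, a stress sensor. Pdia3 rose by 1.06 in OP rats, 1.78 in OR rats and 1.68 in LC rats. The count was 1 on the scanner-processed signal (5%, beside 2.04% of all genes). The EGF family list had 2 of 11 more negative and 0 more positive. Neither the fat cell list (3 of 24 more positive, 12.5%, beside 2.44% of all genes) nor the mitosis list (0 of 16) leaned as far as the unfolded protein response.

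Single growth and transport genes also differed at an unadjusted interaction p only. Slc7a5, the large neutral amino acid transporter, had 8.47, 9.04 and 9.53 in OP cancers and 7.48, 6.85 and 7.12 in OP normal tissues, without overlap. It rose by 1.82 ± 0.24 in OP rats (adjusted p = 4.77e-05), with 1.21 in OR rats and 0.70 in LC rats (interaction 0.86, unadjusted p = 0.015). Mgmt, which repairs alkylated guanine, differed by -0.71 in OP rats (adjusted p = 0.221), -2.23 in OR rats and -2.44 in LC rats (interaction 1.62, unadjusted p = 0.0159). Its OP cancer levels ran from 10.11 to 12.97, and OP cancer 1 lay above all 3 OP normal tissues.

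The deepest falls in OP cancers were in genes of fat cells. Of 24 fat cell markers 22 fell and 0 rose, with a median log2 difference of -3.17 beside -0.01 over all genes, and medians of -3.34 in OR and -3.12 in LC rats. Adipoq, the hormone adiponectin, had 6.74, 6.91 and 7.17 in OP cancers (lowest, median and highest) and 14.75, 15.24 and 14.77 in OP normal tissues. It fell by 7.98 ± 0.22 (253-fold lower, adjusted p = 5.14e-13), by 8.01 on slide 1 and by 8.31 on slide 2. The cancers lay near the dim end of the array and the normal tissues near the bright end. Retn, the hormone resistin, had 6.89, 7.17 and 7.48 in OP cancers and 15.02, 14.61 and 14.68 in OP normal tissues and fell by 7.57 ± 0.17 (adjusted p = 1.03e-13). Its fall was smaller than in the other rats by 0.69 (interaction, unadjusted p = 0.00787). Lep, the hormone leptin, was not well above background on any OP cancer array, which put it at least 1.3-fold lower in OP cancers (adjusted p = 0.000892), with 6.81, 7.21 and 6.80 in OP normal tissues. Of 19 adipokines and receptors 7 fell and 0 rose, among them Rarres2, which makes chemerin (-2.70), and Cfd, the fat cell protease adipsin (-5.12).

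**Figure D3:**
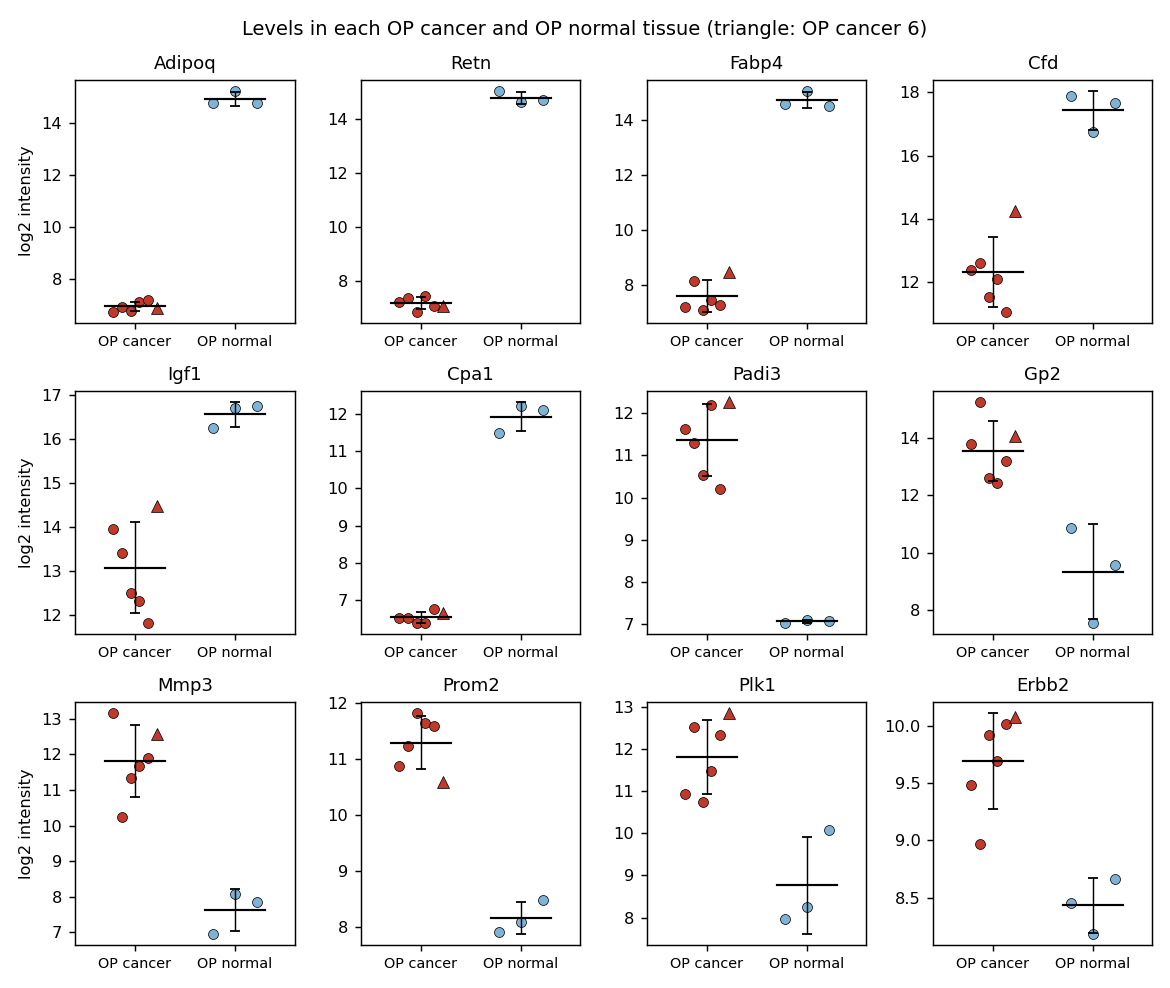
Log2 intensity of 12 genes in the 6 OP cancers (left, red) and 3 OP normal tissues (right, blue), with group mean (line) and SD (bar); the triangle is OP cancer 6. In every panel the groups are apart, by about 8 units for Adipoq and least for Erbb2 (8.97 to 10.08 in OP cancers, against 8.19 to 8.66 in OP normal tissues).

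Genes that store or release fat followed. Of 19 members 13 fell and 0 rose (median -1.97). The fatty acid carrier Fabp4 had 7.13, 7.37 and 8.51 in OP cancers and 14.59, 15.07 and 14.53 in OP normal tissues and fell by 7.10 ± 0.34. The glycerol channel Aqp7 was not well above background on any OP cancer array, which put it at least 35-fold lower in OP cancers, with 11.63, 11.89 and 11.53 in OP normal tissues (adjusted p = 6.64e-11). Cidec, a lipid droplet protein, fell by 4.51 ± 0.28, and Lpl, the lipase that frees fatty acids from lipoproteins, fell by 3.42 ± 0.29. Acsl1, which activates fatty acids, had 9.68, 11.44 and 12.41 in OP cancers and 14.34, 15.72 and 14.93 in OP normal tissues and fell by 3.68. Pck1, which feeds glycerol synthesis, fell by 4.97 on its brightest probe and by 2.7 on the other.

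Of 16 fat cell transcription factors 8 fell and 3 rose (median -0.91). Pparg, the master regulator of fat cells, had 6.58, 6.71 and 6.91 in OP cancers and 9.01, 8.42 and 8.50 in OP normal tissues and fell by 1.91 ± 0.14 (adjusted p = 1.63e-07). Ebf1 (-3.15), which acts early in fat cell formation, and Nr1h3 (-2.25), the oxysterol receptor LXR alpha, fell without overlap. Rxrg, a retinoid receptor, fell by 2.13 on its brightest probe and differed by -0.2 on the other. The 3 that rose were Klf5 (0.88), Stat5b (0.83, adjusted p = 0.48 with a slide block) and Mlxipl (0.25, 0.0676).

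Of 15 fatty acid synthesis genes 3 rose and 4 fell (beside 21.2% and 23.4% of all genes; median -0.06). Scd, the fat cell form of stearoyl-CoA desaturase, had 8.28, 9.28 and 9.55 in OP cancers and 11.33, 16.19 and 13.78 in OP normal tissues and fell by 4.66 ± 0.79 (adjusted p = 0.000294). Its sister Scd2 had 14.38, 14.75 and 15.40 in OP cancers and 12.57, 12.96 and 13.16 in OP normal tissues and rose by 1.91 ± 0.29, although another of its 3 probes differed by -0.6. Thrsp, a lipogenic protein of fat and gland, fell by 4.12, and Acaca, the first enzyme of the path, by 0.78. Of 25 fatty acid oxidation genes 10 fell and 1 rose (median -0.47), with Ech1 (-1.36), Decr1 (-1.33), Etfb (-1.24, adjusted p = 0.07 with a slide block) and Acadvl (-0.86, and 0.02 on a second probe) lowest in p. In cholesterol synthesis 6 of 24 rose and 4 fell: Nsdhl, a late enzyme, rose by 0.92, while Dhcr7 (-1.65), which makes cholesterol itself, and Insig1 (-2.01 on the brightest of 4 probes), which holds the path back, fell.

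Genes of cell division rose together. Of 16 mitosis genes 15 rose and 1 fell (median 1.94 in OP rats, 2.77 in OR rats and 0.90 in LC rats), and 14 rose without OP cancer 6. The list's mean was 9.08 to 10.38 in OP cancers, 9.92 to 10.73 in OR cancers and 9.50 to 10.07 in LC cancers. It was 7.79 to 8.72 in OP normal tissues, 7.94 and 7.71 in OR normal tissues, and 8.21, 9.77 and 8.87 in LC normal tissues. Plk1, a kinase that drives entry into mitosis, had 10.74, 11.91 and 12.86 in OP cancers and 7.95, 8.26 and 10.09 in OP normal tissues, without overlap, and rose by 3.05 ± 0.56 (8.27-fold, adjusted p = 0.000545). OP normal 3 was the highest of the normal tissues for Plk1, Birc5, Spag5 and Ccnb2. Birc5, the survival protein survivin, rose by 2.58, Spag5, a spindle protein, by 2.47, Ccnb2, a B-type cyclin, by 2.14, and Kif2c, a spindle motor, by 1.96 ± 0.26 (adjusted p = 4.32e-05). Cdk1, the kinase that B-type cyclins activate, had 11.07, 12.23 and 12.84 in OP cancers and 9.04, 9.55 and 10.65 in OP normal tissues and rose by 2.31. Cdc20, which directs the destruction of mitotic proteins, rose by 2.20, and Pttg1, the securin that it helps destroy, by 1.92. The member that fell was Hmmr, a spindle protein that binds hyaluronan, at -0.77 (adjusted p = 0.0109); its second probe differed by -0.07.

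Promoters of mitotic genes are known for CCAAT boxes, which the factor NF-Y binds, and for a cell cycle element with the letters TTTGAA. The 250 bases upstream of the transcription start are shown for 7 of the genes above, from RefSeq on build GRCr8, 5′ to 3′ on the gene's strand: 4 that rose and hold both motifs, Plk1 and Kif2c, the mitosis genes with the largest rise and the smallest p, and Hmmr, which did not rise. Capitals mark CCAAT or TTTGAA on either strand, so that ATTGG and TTCAAA are the same motifs read from the other strand.
Ccnb2 promoter, chr8:79981659-79981908, minus strand: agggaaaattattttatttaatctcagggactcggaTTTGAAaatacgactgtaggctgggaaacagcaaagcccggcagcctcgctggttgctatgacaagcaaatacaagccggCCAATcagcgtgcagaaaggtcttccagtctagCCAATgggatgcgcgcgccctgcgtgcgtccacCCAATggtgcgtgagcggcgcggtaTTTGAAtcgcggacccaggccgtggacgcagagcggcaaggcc
Cdk1 promoter, chr20:19265043-19265292, plus strand: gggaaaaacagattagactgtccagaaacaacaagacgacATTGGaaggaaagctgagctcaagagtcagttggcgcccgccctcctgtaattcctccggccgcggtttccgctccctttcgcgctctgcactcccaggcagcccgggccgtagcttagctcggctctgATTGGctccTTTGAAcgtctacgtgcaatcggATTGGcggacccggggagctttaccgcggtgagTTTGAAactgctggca
Cdc20 promoter, chr5:137255800-137256049, minus strand: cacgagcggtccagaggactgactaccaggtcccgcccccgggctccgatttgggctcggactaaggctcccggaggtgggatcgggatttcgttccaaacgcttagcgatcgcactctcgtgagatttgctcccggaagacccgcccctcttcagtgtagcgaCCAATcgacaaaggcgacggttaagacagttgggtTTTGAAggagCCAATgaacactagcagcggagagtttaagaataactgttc
Pttg1 promoter, chr10:28406327-28406576, minus strand: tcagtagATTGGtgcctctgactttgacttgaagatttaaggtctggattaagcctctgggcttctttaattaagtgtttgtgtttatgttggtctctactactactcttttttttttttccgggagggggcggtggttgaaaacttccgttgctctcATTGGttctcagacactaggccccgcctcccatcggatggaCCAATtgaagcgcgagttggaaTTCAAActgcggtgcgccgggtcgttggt
Plk1 promoter, chr1:186147408-186147657, plus strand: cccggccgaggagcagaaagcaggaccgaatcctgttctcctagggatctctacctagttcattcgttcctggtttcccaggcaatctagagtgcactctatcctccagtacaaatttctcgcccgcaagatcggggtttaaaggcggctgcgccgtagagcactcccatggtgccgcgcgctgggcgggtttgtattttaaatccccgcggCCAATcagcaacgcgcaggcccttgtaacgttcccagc
Kif2c promoter, chr5:135899213-135899462, minus strand: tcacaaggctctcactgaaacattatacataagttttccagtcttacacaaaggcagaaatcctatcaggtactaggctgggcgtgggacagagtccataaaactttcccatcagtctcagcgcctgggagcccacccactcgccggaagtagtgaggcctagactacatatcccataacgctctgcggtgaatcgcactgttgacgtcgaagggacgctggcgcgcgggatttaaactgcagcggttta
Hmmr promoter, chr10:25665216-25665465, minus strand: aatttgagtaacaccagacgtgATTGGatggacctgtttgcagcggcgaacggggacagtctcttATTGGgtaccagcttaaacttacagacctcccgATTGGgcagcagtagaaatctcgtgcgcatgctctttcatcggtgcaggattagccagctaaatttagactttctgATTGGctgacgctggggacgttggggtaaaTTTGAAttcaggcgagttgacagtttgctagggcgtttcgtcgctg
In windows of 300 bases (50 of them downstream of the start), CCAAT on either strand stood in 11 of the 13 mitosis promoters found in the table (84.6%) and in 12549 of all 33469 promoters (37.5%). TTTGAA on either strand stood in 9 of 13 (69.2%) and in 6140 (18.3%). At least 2 copies of CCAAT together with TTTGAA stood in 7 of 13 (53.8%) and in 711 of all (2.12%), and in 0 of 14 fat cell marker promoters. Hmmr, which did not rise on either probe, holds 4 copies of CCAAT and 1 of TTTGAA in its 250 bases, against 3 and 2 for Cdk1, 2 and 1 for Cdc20, 1 and 0 for Plk1 and 0 and 0 for Kif2c. A match is a match of letters only.

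DNA replication genes rose as well, 10 of 17 with 0 falling (median 0.67). Fen1, which trims Okazaki fragments, rose by 1.48 ± 0.23 (adjusted p = 0.000145), Orc1, of the origin recognition complex, by 1.67, Rfc2, a clamp loader subunit, by 0.67, and Rrm1, of ribonucleotide reductase, by 1.55 on its brightest probe, while another of its 3 probes differed by -0.3. Of 20 DNA repair genes 9 rose and 0 fell (median 0.39). Rad50 had 7.61, 7.84 and 7.99 in OP cancers and 6.74, 6.88 and 6.87 in OP normal tissues and rose by 1.01 ± 0.09 (adjusted p = 1.09e-06); it and Mre11 (0.91) are partners in a complex that holds broken DNA ends. Chek1, a checkpoint kinase, rose by 1.12, and Fancd2, of the Fanconi anaemia path, by 0.95. All 4 were dim, below a level of 8 in every OP sample. The brighter Xrcc5, the Ku80 subunit that binds broken ends, rose by 1.44, and Apex1, a base excision nuclease, by 1.30.

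Cdkn1a, the cyclin kinase inhibitor p21, had 10.41, 11.60 and 12.93 in OP cancers and 9.95, 10.31 and 9.72 in OP normal tissues and rose by 1.59 ± 0.41 (adjusted p = 0.00529). The death protein Bax rose by 0.84 and Ei24 by 1.08 (adjusted p = 0.064 with a slide block). Cdkn2a, which encodes the inhibitor p16 and the protein Arf, had 7.17, 10.18 and 11.17 in OP cancers and 6.46, 6.32 and 6.41 in OP normal tissues, without overlap. It rose by 3.35 ± 0.72 (adjusted p = 0.00168, and 0.0554 with a slide block), with 3.54 in OR and 2.97 in LC rats. Of the 15 inhibitors, D cyclins and Myc genes 6 rose and 0 fell, among them Mycn (1.82), Cdk4 (0.52, adjusted p = 0.0552 with a slide block) and Ccnd1, cyclin D1 (1.02, adjusted p = 0.0209, and 0.136 with a slide block). Ccnd1 overlapped, at 13.64, 14.73 and 15.18 in OP cancers and 13.81, 13.77 and 13.15 in OP normal tissues.

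Epithelial markers were mixed. Of 15 luminal markers 8 rose and 1, Kit, fell (median 0.75 in OP, 0.98 in OR and 2.37 in LC rats), and 3 rose with a slide block. Krt8 and Krt18, the paired luminal keratins, rose by 1.77 ± 0.37 and 1.12 ± 0.29, and neither overlapped. Gata3, which maintains luminal cells, rose by 1.39 (adjusted p = 0.000827). Cldn7, a tight junction claudin, had 10.96, 12.82 and 13.25 in OP cancers and 10.33, 9.74 and 10.19 in OP normal tissues and rose by 2.29 ± 0.63 (adjusted p = 0.00793), but by 0.98 with a slide block (adjusted p = 0.288). Epcam rose by 1.55 (adjusted p = 0.0604 with a slide block) and Cldn3 differed by 1.07 (adjusted p = 0.0725). Of 20 keratins and claudins 5 rose and 1 fell, Krt4, a keratin of stratified lining, at -0.95.

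Of 10 myoepithelial and basal markers 4 fell and 1 rose (median -0.81). Oxtr, the oxytocin receptor of milk ejection, fell by 2.01 ± 0.30 (adjusted p = 0.000125), Mme, a surface peptidase, by 2.09, Actg2, a smooth muscle actin, by 0.94, and Cav1, of membrane caveolae, by 0.89. Krt5, the basal keratin, was the one that rose, with 11.98, 13.31 and 13.62 in OP cancers and 11.29, 11.27 and 11.42 in OP normal tissues (1.63, adjusted p = 0.033, and 0.544 with a slide block).

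Receptors and ligands of the EGF family rose in 7 of 11 cases and fell in 1 (median 0.52 in OP, 0.55 in OR and 0.98 in LC rats). Erbb2, the receptor HER2, had 8.97, 9.81 and 10.08 in OP cancers and 8.45, 8.19 and 8.66 in OP normal tissues, without overlap. It rose by 1.26 ± 0.22 (adjusted p = 0.000356), with 1.85 in OR and 2.28 in LC rats (interaction -0.81, unadjusted p = 0.0122). The ligand Tgfa rose by 1.49, and the receptor Erbb3 (0.52) and the ligand Hbegf (1.14) rose without slide as a block, with adjusted p = 0.133 and 0.114 with it. Areg, amphiregulin, had 14.01, 15.81 and 17.40 in OP cancers and 14.72, 13.62 and 12.84 in OP normal tissues and rose by 2.16 (adjusted p = 0.0216, and 0.115 with a slide block), with OP cancer 6 within the normal range. Ereg, epiregulin, rose by 2.22 (adjusted p = 0.0826 with the block).

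Hormone response genes rose in 6 of 19 cases and fell in 2 (median 0.15). Pgr, the progesterone receptor, had 7.14, 8.09 and 9.05 in OP cancers and 6.82, 6.49 and 6.42 in OP normal tissues and rose by 1.61 ± 0.36 (adjusted p = 0.00233). Esr1, oestrogen receptor alpha, was dim, at 6.54, 6.69 and 7.05 in OP cancers and 6.37, 6.31 and 6.54 in OP normal tissues. It rose by 0.35 (adjusted p = 0.0316), not with a slide block (0.0924), and it turned to -0.70 and -1.61 when arrays were scaled to the 75th percentile. Cited1, a cofactor of the oestrogen receptor, rose by 2.43 ± 0.47, and Wnt4, a signal that progesterone induces, by 1.40 ± 0.36 (adjusted p = 0.00576, and 0.0716 with a slide block). Wnt4 differed by 1.56 in OR and 3.73 in LC rats (interaction -1.25, unadjusted p = 0.0198). Calcr, the calcitonin receptor, fell by 1.18 on its brightest probe and differed by 0.3 on the other. Cyp19a1, aromatase, was not analysed here. Of 7 Wnt genes 3 rose and 0 fell: Wnt4, Wnt5a (1.65) and the nuclear partner Lef1 (1.93), and 0 of them with a slide block (adjusted p = 0.15 and 0.0928 for Wnt5a and Lef1). Wnt7b differed by 0.21 (adjusted p = 0.112).

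In the insulin and IGF chain 8 of 28 members rose and 8 fell (median 0.17). Igf1, a growth factor made by stroma and fat, had 11.83, 12.95 and 14.47 in OP cancers and 16.24, 16.69 and 16.75 in OP normal tissues. It fell by 3.48 ± 0.55 (adjusted p = 0.000171) on its brightest probe, and its 4 probes ran from -3.5 to 0.1. Igfbp6, an IGF binding protein, fell by 3.44 ± 0.43, and Pik3r1, the regulatory subunit of PI3 kinase, by 1.08 ± 0.15. Mtor, the growth kinase, rose by 0.69 ± 0.09 (adjusted p = 5.73e-05), and less than in the other rats (interaction -0.41, unadjusted p = 0.00423). Slc2a4, the insulin-driven glucose transporter of fat and muscle, fell by 4.13 on its brightest probe and differed by -0.2 on the other.

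Energy metabolism changed in part. Of 25 glycolysis genes 11 rose and 5 fell (median 0.58), and 3 rose and 4 fell with a slide block. Slc16a3, which exports lactate, had 11.60, 12.67 and 13.88 in OP cancers and 10.11, 9.97 and 10.17 in OP normal tissues and rose by 2.54 ± 0.47 (adjusted p = 0.000599). Pgam1, a glycolytic mutase, rose by 1.10, and Pfkfb3, which makes an activator of the path, fell by 1.02. Of 29 oxidative phosphorylation subunits 11 rose and 4 fell (median 0.20 in OP, 0.03 in OR and -0.35 in LC rats). Atp5f1b rose by 1.16, Atp5f1a by 1.21 and Atp5mc1 by 0.42, all of the ATP synthase, and Ndufs1, of complex I, by 1.25 ± 0.22. Of 18 tricarboxylic acid cycle genes 6 rose and 4 fell, with Pdhb (1.21) and Pdha1 (-0.41), 2 subunits of 1 enzyme, in opposite directions, Dlst up by 0.40 and Mdh2 by 0.78 (adjusted p = 0.0707 with a slide block). In the breakdown of branched-chain amino acids 3 of 14 rose and 0 fell: Hibch (0.64), and, not with a slide block, Hibadh (0.66, adjusted p = 0.142) and Aldh6a1 (0.36, 0.256).

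Of 23 amino acid transporters 7 fell and 3 rose. Slc7a10, which fat cells carry, had 6.92, 7.30 and 9.30 in OP cancers and 13.35, 14.25 and 13.33 in OP normal tissues and fell by 5.98 ± 0.50. Slc36a2 fell (a difference of -3.78 between the measured means, with 1 of 6 OP cancer arrays well above background), and Slc1a5, a glutamine carrier, had 9.71, 10.02 and 12.35 in OP cancers and 13.77, 13.98 and 13.53 in OP normal tissues and fell by 3.33. Slc6a9, a glycine carrier, was not well above background on any OP normal array and was at least 1.63-fold higher in OP cancers (adjusted p = 1.06e-05). Of 31 oxidative stress genes 8 rose and 7 fell: Sod3, the extracellular superoxide dismutase, fell by 4.08 ± 0.42, Gstm2 by 2.09 and catalase (Cat) by 1.08, while Gclc, of glutathione synthesis, rose by 0.56. Of 20 unfolded protein response genes 8 rose and 4 fell, with rises of Dnajb11 by 1.08 ± 0.16, Pdia6 by 0.63 (adjusted p = 0.0512 with a slide block) and Eif2ak3 by 0.57.

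Stromal markers were lower, and by more when OP cancer 6 was left out. Of 11 fibroblast and matrix markers 6 fell and 0 rose (median -1.67), 9 fell without OP cancer 6 (median -1.94), and 2 fell with a slide block. The list's mean was 13.61 in OP cancer 6, 11.12 to 12.32 in the other 5 OP cancers and 13.25 to 13.36 in OP normal tissues. Fbn1, of elastic microfibrils, fell by 2.77 ± 0.56 (adjusted p = 0.00111), Dcn, the proteoglycan decorin, by 2.37 ± 0.60 (adjusted p = 0.00495, and 0.0722 with a slide block), Sparc, which binds collagen, by 1.68, and Col1a2, a type I collagen chain, by 1.29 (adjusted p = 0.0221, and 0.103 with the block). Of 8 endothelial markers 5 fell and 0 rose (median -0.91): Erg, a vessel transcription factor, had 7.72, 8.19 and 8.87 in OP cancers and 10.00, 10.75 and 9.91 in OP normal tissues and fell by 2.01 ± 0.31, and Esam (-1.48), Emcn (-1.12) and Pecam1 (-0.67), surface proteins of vessels, fell by less.

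**Figure D4:**
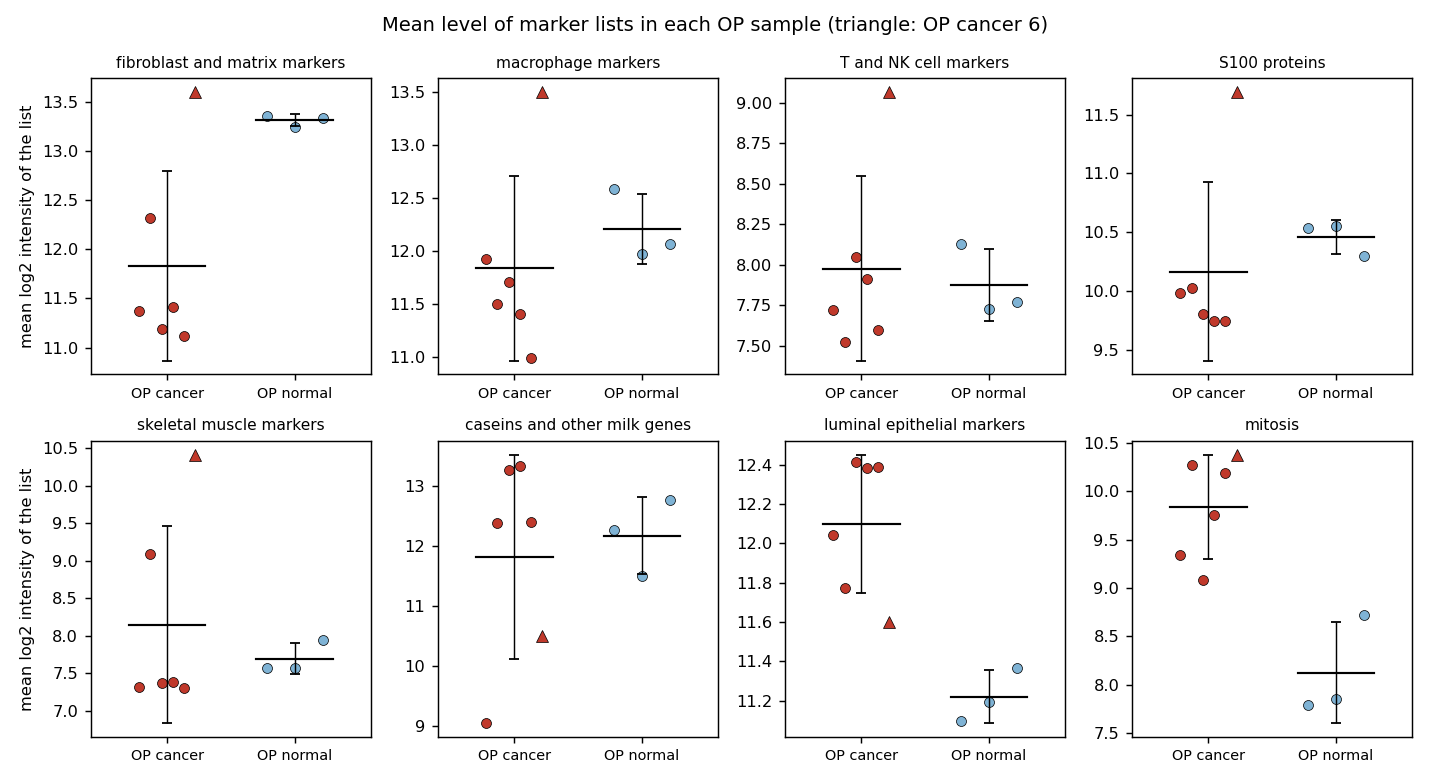
Mean log2 intensity of 8 marker lists in each OP cancer (left, red) and OP normal tissue (right, blue), with group mean (line) and SD (bar); the triangle is OP cancer 6. OP cancer 6 is the highest OP cancer for fibroblast (13.61), macrophage (13.51), T and NK cell (9.07), S100 (11.69) and skeletal muscle (10.41) lists and the lowest for luminal markers (11.60).

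Few immune markers passed the test over all 6 OP cancers, and OP cancer 6 had the highest mean of the macrophage, T and NK cell and B and plasma cell lists. Of 12 macrophage markers 1 fell, Cd14, an endotoxin co-receptor, at -1.65 (adjusted p = 0.0318), and 4 fell without OP cancer 6; C1qb (-1.02), Aif1 (-0.48) and Lgals3 (-0.51) did not pass with it. The macrophage mean was 13.51 in OP cancer 6, 10.99 to 11.93 in the other OP cancers and 11.97 to 12.59 in OP normal tissues. Of 15 T and NK cell markers Gzmb, a granule protease, rose (0.91, adjusted p = 0.0265, and 0.801 with a slide block) and Klrb1a, an NK receptor, fell (-0.97, adjusted p = 0.000936), with Gzma at -1.20 and Cd8a at 1.06 not passing. None of 3 B and plasma cell markers passed (Blnk 0.82, Mzb1 0.57, Cd79b -0.39; lowest adjusted p 0.228), nor any of 9 MHC class II genes (4 lower and 5 higher in OP cancers, from RT1-Da -0.99, Cd74 -0.76 and RT1-DOb -0.40 up to RT1-Bb 2.86, median 0.19). None of 13 skeletal muscle genes passed, with 3 lower (down to -0.34) and 10 higher, among them Actn3 (1.24), Tnni2 (1.10), Tnnt1 (0.45) and Atp2a1 (0.44). Their mean was above the OP normal tissues (7.57 to 7.94) in OP cancers 2 (9.08) and 6 (10.41) alone. Of 8 mast cell markers Kit, the stem cell factor receptor, fell (-0.80), and Tpsab1 (-0.54), Cma1 (-2.90) and Fcer1a (-0.42) did not pass.

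Of 34 chemokines and receptors 8 fell and 3 rose, a share of falls close to the 23.4% of all genes and one of rises below the 21.2%. Ccl21, which draws lymphocytes, had 7.20, 8.08 and 10.12 in OP cancers and 13.52, 13.97 and 13.31 in OP normal tissues and fell by 5.14 ± 0.91 (adjusted p = 0.000412), Ccl6 fell by 3.14, Ackr3, a scavenging receptor, by 2.93 ± 0.25 and its ligand Cxcl12 by 1.52. Of 18 complement genes 7 fell and 1 rose, and 9 fell without OP cancer 6. Cfd had 11.06, 12.22 and 14.26 in OP cancers and 17.89, 16.74 and 17.68 in OP normal tissues and fell by 5.12 ± 0.51. C6, of the membrane attack complex, fell by 3.68, Serping1, the C1 inhibitor, by 2.25 and Masp1, of the lectin path, by 0.41. Of 25 interferon response genes 4 rose and 1 fell. Bst2, the tether of budding viruses, had 11.57, 14.47 and 15.18 in OP cancers and 10.82, 10.11 and 10.11 in OP normal tissues and rose by 3.55 ± 0.61, but by 1.72 with a slide block (adjusted p = 0.00971). Isg20, a nuclease, rose by 0.99, Psmb9, an immunoproteasome subunit, by 0.90 (adjusted p = 0.254 with the block), and Ifit3 fell by 0.69.

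Of 20 genes linked to inflammation in obesity 4 rose (beside 21.2% of all genes) and 1 fell (median 0.14), 3 rose and 4 fell without OP cancer 6, and 1 rose and 2 fell with a slide block (median -0.17). Spp1, osteopontin, had 9.64, 10.87 and 12.62 in OP cancers and 7.69, 7.96 and 8.45 in OP normal tissues and rose by 2.88 ± 0.72 (adjusted p = 0.00427), with 4.34 in OR and 1.95 in LC rats. Hp, haptoglobin, rose by 1.33 (adjusted p = 0.029, and 0.412 with a slide block). One of the 4 was Il10, for which no OP cancer array was well above background, so no size is given. Ptgs2, well above background on 2 of 6 OP cancer arrays by its best probe, differed by -0.21. Of 9 S100 proteins 4 fell and 0 rose: S100a1 by 1.95 ± 0.26, S100a10 by 1.01, S100a4 by 1.75 (adjusted p = 0.0294, and 0.104 with a slide block), and S100b, at least 1.57-fold lower and not well above background on any OP cancer array.

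Of 24 matrix proteases and inhibitors 6 rose and 7 fell (beside 21.2% and 23.4% of all genes). Mmp3, stromelysin, had 10.23, 11.78 and 13.17 in OP cancers and 6.96, 8.07 and 7.85 in OP normal tissues and rose by 4.18 ± 0.92 (adjusted p = 0.00187), with 5.49 in OR and 5.91 in LC rats. Adamts1 (1.53) and Plau (1.23), the urokinase, rose, while Mmp23 (-3.25) and Adamts5 (-2.27), which cuts aggrecan, fell. Of 20 TGF-beta and BMP genes 2 rose and 4 fell: Inhba, the activin subunit, had 8.62, 9.28 and 10.56 in OP cancers and 7.13, 7.39 and 7.02 in OP normal tissues and rose by 2.22 ± 0.33 (adjusted p = 0.000109), while its antagonist Fst fell by 1.40, Ltbp1, which stores TGF-beta, by 1.97, and Fstl1 by 0.86. Of 21 immediate early genes 6 rose and 2 fell (2 and 2 with a slide block, with a median of 0.07 in place of 0.22). Those that fell were Klf2 (-1.89) and Klf6 (-1.25, and -0.2 on a second probe), with small rises of Zfp36 (0.59) and Nr4a2 (0.35, adjusted p = 0.132 with a slide block).

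Other large rises stood outside these lists. Padi3, which converts arginine in proteins to citrulline, had the largest of any named gene, with 10.20, 11.47 and 12.27 in OP cancers and 7.03, 7.09 and 7.06 in OP normal tissues, 4.30 ± 0.71 (19.7-fold, adjusted p = 0.00025). Gp2, a membrane glycoprotein of secretory granules, rose by 4.23 ± 0.68, and its 3 normal tissues spread over 10.86, 7.55 and 9.58. Prom2, a protein of membrane protrusions, had 10.60, 11.41 and 11.82 in OP cancers and 7.91, 8.09 and 8.47 in OP normal tissues and rose by 3.14 ± 0.28, with 2.91 in OR and 3.24 in LC rats. Igfals, which carries IGFs in serum, rose by 3.22 ± 0.92, Tmem54 by 3.11, Spef2, of flagella, by 2.90, Ggt1, which breaks down glutathione, by 2.83, and Il1rl1, the receptor of interleukin 33, by 2.77. Penk, the precursor of enkephalins, rose by 3.04 ± 0.68 (adjusted p = 0.0022, and 0.0598 with a slide block), with 1.98 in OR and 1.33 in LC rats.

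Other large falls were in Ces1d, a carboxylesterase of fat and liver, with 6.15, 6.42 and 6.94 in OP cancers (well above background on 2 of 6 arrays) and 14.66, 14.45 and 14.72 in OP normal tissues, with a difference of -8.08 between the measured means (adjusted p = 1.69e-12). Grifin, a galectin relative, fell by 6.40 ± 0.22, and Car3, a carbonic anhydrase of fat, fell by 5.35 ± 0.23. Cpa1, a pancreatic carboxypeptidase, was not well above background on any OP cancer array, which put it at least 39.6-fold lower in OP cancers, with 11.47, 12.20 and 12.11 in OP normal tissues. Reg3b, another gene known from pancreas and gut, fell by 4.92 ± 1.28, with 6.47, 8.08 and 10.88 in OP cancers and 12.95, 13.20 and 14.24 in OP normal tissues. Mst1, which makes macrophage-stimulating protein, fell by 5.04 ± 0.39. Of the 30 largest rises and falls 28 kept their call with a slide block.

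The OP cancers differed among themselves most in milk genes, given here with no test because they were picked for their spread. Glycam1, a secreted mucin of the lactating gland, stood at 10.08, 16.16, 15.10, 17.95, 15.20 and 7.34 in OP cancers 1 to 6 and at 16.87, 13.81 and 17.86 in OP normal tissues. Csn2, beta-casein, stood at 8.33, 15.22, 16.11, 16.29, 13.21 and 9.28 in the OP cancers and at 12.07, 8.74 and 14.45 in OP normal tissues, and Wap, whey acidic protein, ran from 7.27 to 15.09 in OP cancers. OP cancers 1 and 6 were the lowest of the OP cancers for these genes and for Lalba (9.87 and 13.46), a cofactor of lactose synthesis, and Csn1s1 (10.28 and 14.43). Both lay below all 3 OP normal tissues for Glycam1, Wap, Lalba and Csn1s1, but for Csn2 OP cancer 6 lay among the OP normal tissues, and OP cancers 2, 3 and 4 above them. Of 15 milk genes 2 rose and 2 fell: Spp1, Aldh1a3 (0.63, adjusted p = 0.256 with a slide block), Xdh (-1.74), of the milk fat globule, and Csn1s2b (-0.34). With a slide block 1 rose and 4 fell, and the median was -1.58 in place of -0.34, at -3.74 on slide 1 (OP cancer 1) and 0.29 on slide 2 (OP cancer 2).

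Other spread followed single cancers. OP cancer 6 alone was high for Defa5, a defensin (14.82, against 6.05 to 8.26 in the other OP cancers), and for S100a8, a neutrophil protein (14.17, against 6.64 to 8.21). Fgf3, a growth factor gene known as an integration site of mouse mammary tumour virus, stood at 12.85, 6.76, 6.54, 6.92, 12.23 and 6.86 in OP cancers 1 to 6, high in OP cancers 1 and 5 only, and at 6.92, 6.99 and 6.73 in OP normal tissues. The mast cell protease Cma1 ran from 6.41 to 15.26, highest in OP cancer 1, and RT1-Bb, an MHC class II chain, from 6.71 to 15.44 in OP cancers and from 6.47 to 13.99 in OP normal tissues. The 2 probes of RT1-Bb gave log2 differences of -0.6 and 2.9.

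**Figure D5:**
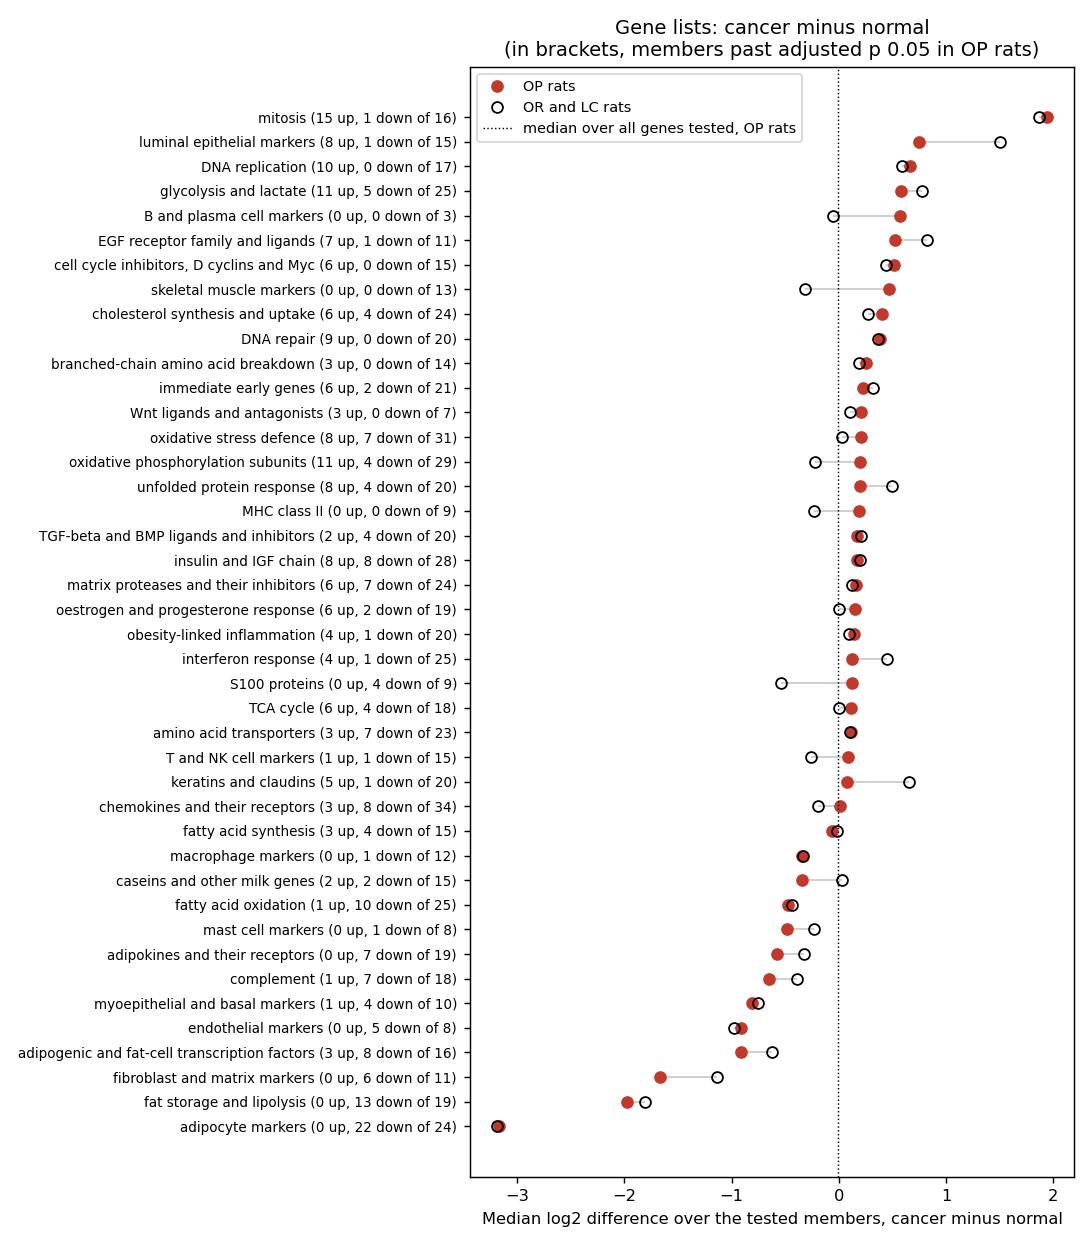
Median log2 difference between cancer and normal tissue over the tested members of 42 gene lists, in OP rats (filled) and as the mean of the OR and LC differences (open); the dotted line is the median over all genes in OP rats. Fat cell markers are lowest (-3.17 in OP rats) and mitosis genes highest (1.94), and the filled and open points lie farthest apart for skeletal muscle (0.47 in OP rats against -0.31 in the others), luminal markers (0.75 against 1.50) and S100 proteins (0.13 against -0.54).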

How the data were processed

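RNA of 20 mammary samples was labelled with Cy3 and hybridized to 1-colour Agilent whole rat genome arrays. The deposited scanner files hold, per the file headers, Feature Extraction output (version 9.5.1.1, while the submitters' processing notes name 10.7.3.1) with a median spot intensity, a local background intensity, a processed intensity and flags per spot. The authors also deposited a log2 value table, which matched the log2 processed intensity minus each array's 75th percentile, centred by gene; the series design names another normalization, Robust Multi-array Average. The spot mean that the design of the tests assumed was not used, since the median spot intensity is what the files hold.

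From the 43379 non-control spots, outlier-marked spots were dropped, intensities were background-corrected (normexp, offset 50) and quantile normalized on the log2 scale, spots of a probe were averaged, and a probe was kept where the share of arrays on which it was well above background reached 0.5 in some group (40072 of 41012). The brightest probe stood for each of 36043 genes. RefSeq accessions named 8662 of them (8991 of 13948 accessions matched the RefSeq gene table of GRCr8), and the others keep the array's identifier. limma 3.58.1 (R 4.3.3) fitted the 6 groups over all 20 arrays, with Benjamini-Hochberg adjustment over all genes and a threshold of 0.05. The pipeline was tested on simulated data. Arrays, not reads, set the precision, so no depth is given, and at-least folds set a group not well above background at the lowest signal well above background on each array.

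Replicate numbers did not pair the samples: deviations of same-numbered OP cancers and OP normal tissues from their group means had correlations of -0.04, 0.07 and 0.05. Alternatives were other signals and scalings, the authors' table, other filters, slide, scan day and replicate number as blocks, array weights, the compared groups alone, and each sample left out. Named genes were the 15 largest rises and 15 largest falls past the threshold, the 6 smallest interaction p in each direction, the 4 smallest p in each of 43 lists, a fixed set of hormone and milk genes, and, as description, the 10 with the widest spread among OP cancers. The members and lists were chosen with earlier results of these data known. Acsl1, Apex1, Areg, Atp5pd, Atp5po, Cdc20, Cdh1, Cdk1, Cldn3, Cox5b, Cox6c, Cox7a2, Cox7b, Dcxr, Epcam, Ereg, Hmmr, Klf5, Krt5, Mgmt, Mlxipl, Ndufv2, Pdia4, Pttg1, Slc1a5, Stat5b, Uqcrh and Xrcc5 were named outside this rule, after their values were seen. Some genes that the rule named are not reported here.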

Additional observations from a re-analysis of the deposited data

Results flagged for a closer look

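Among 269 values screened in the 6 OP cancers, 30 had a highest or lowest sample apart from the rest. Its gap to its neighbour exceeded Dixon's critical share of the group's range. The usual rate by chance, about 1 group in 20, is no yardstick for these counts. Some screened genes, such as Defa5 and S100a8, were picked for their spread among the same OP cancers. The values are also not independent, since list means share members with the screened genes. OP cancer 6 was the sample apart in 19 of the 30. It was the highest OP cancer for Sparc (17.06), Serping1 (16.09), S100a4 (15.03), Defa5 (14.82), S100a8 (14.17), Mzb1 (9.98), Cd8a (9.81), Cd79b (7.52), Rxrg (7.47) and Lep (6.46), where Lep was not well above background on any OP cancer array. It was also the highest for the mean levels of the macrophage (13.51), S100 (11.69), oxidative stress (10.97), matrix protease (10.92), obesity-linked inflammation (9.93), chemokine (9.19), T and NK cell (9.07) and B and plasma cell (8.81) lists, and the lowest for Zcchc9 (10.78).

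Other OP cancers stood apart in 11 values. OP cancer 2 was high for Ndufs1 (9.40), Slc36a2 (6.80) and the percent of probes well above background (79.3%) and low for Psmb9 (13.65). OP cancer 1 was high for Fcer1a (8.08) and low for Tgfa (9.78). OP cancer 3 was low for Atp5mc1 (14.75), the mean of the cholesterol list (9.33) and that of the DNA repair list (9.25). OP cancer 4 was high for Csn1s2b (7.17), and OP cancer 5 for Atp5po (15.82).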

How the results depend on the processing

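The count of 16062 genes between OP cancer and OP normal tissue was 24895 on the processed signal scaled to the 75th percentile, 25685 on the background-corrected signal scaled so, 8753 in the authors' deposited value table (18351 genes), 10581 among the 22645 genes with probes well above background in each of the groups, and 5894 on the arrays of scan day 2 alone, a setting chosen after seeing the data. It was 12404 with slide, 14394 with scan day and 11731 with replicate number as a block, and 10874 to 15944 with 1 sample left out. The interaction against the mean of OR and LC rats called 0 genes, 3 with slide as a block (2 of them without a symbol), 1 with the replicate block (Zcchc9), and 0 to 1 with 1 sample left out (Zcchc9 without OP cancer 6, Cdh1 without LC normal 2, 1 without a symbol without OP normal 1). Against OR rats it called 0, with 1 under slide as a block and 0 to 4 with 1 sample left out. Against LC rats it called 0, with 2 on the quantile-normalized processed signal, 59 with slide as a block and 0 to 758 with 1 sample left out. The change in OR and LC rats called 18887 genes, and 11106 in the authors' deposited table. The difference in the share of probes well above background, -28.8 points, ran from -31.5 to -27.1, with an exact permutation p of 0.0714 without any one OP normal tissue, the smallest that 6 against 2 can give. The cause of these shifts was not tested.

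Log2 differences of named genes that turned below 0 on the processed signal scaled to the 75th percentile were Aldh6a1 -1.07, Eif2ak3 -0.28, Erbb3 -0.46, Esr1 -1.61, Gclc -0.59, Gzmb -0.067, Hibch -0.13, Il10 -1.94, Mlxipl -1.48, Nr4a2 -0.58, Wnt7b -1.30 and Zfp36 -0.52. On the background-corrected signal scaled so they were Aldh1a3 -0.10, Aldh6a1 -0.72, Eif2ak3 -0.35, Erbb3 -0.37, Esr1 -0.70, Fancd2 -0.0027, Gclc -0.50, Hibch -0.23, Il10 -0.74, Mlxipl -0.90, Mre11 -0.048, Mtor -0.025, Nr4a2 -0.47, Slc6a9 -0.27, Wnt7b -0.92 and Zfp36 -0.48. In the authors' deposited table they were Aldh6a1 -1.06, Eif2ak3 -0.27, Erbb3 -0.46, Hibch -0.13, Nr4a2 -0.58 and Wnt7b -1.29.

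Of the 184 called genes named here, 29 kept their direction but not their call (limma, adjusted p up to 0.232) when 1 OP sample was left out. Without 1 of the OP cancers (adjusted p up to 0.0728) these were Atp5pd (OP cancer 1, 3 or 6), Csn1s2b (1 or 2), Esr1 (1 or 5), Gzmb (3 or 4), Hp (5), Krt5 (3, 4, 5 or 6), Mlxipl (1, 3 or 6), Ndufa5 (3), Ndufv2 (2, 4 or 5), Pdia4 (1, 4 or 5), Ptgs2 (4) and S100a4 (3, 4 or 5). The other 17 lost it only without an OP normal tissue: Cd14, Col1a2, Lef1 and Xdh without any one of the 3, Areg and Kit without 2 or 3, Fstl1, Hmmr and Uqcrh without 1, Cdk4, Epcam, Ifit3, Nr4a2, Pomt2, Stat5b and Zcchc9 without 2, and Ccnd1 without 3.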
